A study of Arabidopsis thaliana with 4 samples.

Results

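The genes described here are 43 Arabidopsis genes of cytokinin signalling and metabolism, chosen by their AGI identifiers as the histidine kinase receptors (AHK), the phosphotransfer proteins (AHP), the type-A and type-B response regulators (ARR), the cytokinin response factors (CRF), the isopentenyltransferases (IPT) and the cytokinin oxidases (CKX). A gene was followed through every called region of the KAN1 ChIP-Seq table whose overlapping, left-hand or right-hand gene was that gene. Of the 43 genes, 42 were named in the table, out of 22970 genes named in all, and ARR14 (AT2G01760) had no region. The 42 genes lay beside 148 of the 22103 regions.

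The ChIP libraries came from 2 samples of 35S:FLAG-GR-KAN1 plants in the Columbia-0 ecotype, in which KAN1 carries a FLAG epitope and the steroid-binding part of the glucocorticoid receptor. The chromatin was precipitated with anti-FLAG beads. The control libraries, 2 by the labels, carry the antibody entry "input", while the methods describe chromatin of wild-type Col-0 plants and a single control library. All plants were grown for 10 days in liquid culture and treated with dexamethasone, which lets the fusion protein enter the nucleus, for 45 minutes. Because the 35S promoter drives the fusion in nearly all cells, the regions describe an overexpressed protein in whole plants and not the abaxial tissues where KAN1 is normally active. The paper speaks of 2 independent ChIP-Seq experiments, but neither it nor the labels say whether the replicates were separate cultures. The spread between them may thus be technical.

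KAN1 is a GARP-family DNA-binding protein that represses transcription and specifies the abaxial, or lower, side of leaves and the outer side of the vasculature. Cytokinin is perceived by AHK receptors, whose phosphate passes through AHP proteins to the type-B ARR proteins, which switch on target genes, among them the type-A ARR genes, whose proteins dampen the response. IPT enzymes make the hormone and CKX enzymes break it down, so that its level is set by both, and the balance with auxin shapes meristems, organs and vascular tissue.

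Enrichment was calculated for each ChIP replicate as its reads in a region divided by the summed reads of both control libraries, and a region was called bound when the mean of both ratios was at least 3. The libraries differed in size, with 2082943 and 1036664 reads in all regions for ChIP replicates 1 and 2, against 661648 and 13441 reads for controls 1 and 2. The ratios were not scaled for these totals, so a ratio of 3 has no meaning outside this table, and replicate 1 gave the higher ratio in all 30 bound regions beside cytokinin genes. Control 2 had no read in 16 of those 30 regions, and the summed control reads there were between 9 and 82.

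Sequences at the bound regions of 5 genes are shown first, as picked examples of enriched regions with the heptamer VGAATAW and one without it. VGAATAW, an element the study derived from its own regions and so not independent of them, has any base but T first, then GAATA, then A or T, and was searched on both strands. Each line gives up to 240 bases around the centre of the region, on the plus strand of TAIR10, read from the TAIR10.1 reference, with every heptamer on either strand in capitals.
ARR8 near region, chr2:17221255-17221494: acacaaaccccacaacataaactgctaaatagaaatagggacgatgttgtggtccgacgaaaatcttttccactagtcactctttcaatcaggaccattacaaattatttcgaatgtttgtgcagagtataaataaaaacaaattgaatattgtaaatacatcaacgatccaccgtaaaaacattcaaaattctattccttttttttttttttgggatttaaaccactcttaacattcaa
ARR8 far region, chr2:17218960-17219199: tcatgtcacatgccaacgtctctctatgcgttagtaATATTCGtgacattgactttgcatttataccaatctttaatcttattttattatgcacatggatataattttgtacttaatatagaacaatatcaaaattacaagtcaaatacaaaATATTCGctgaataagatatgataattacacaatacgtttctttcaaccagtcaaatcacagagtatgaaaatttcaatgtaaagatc
ARR11 upstream region, chr1:25380400-25380639: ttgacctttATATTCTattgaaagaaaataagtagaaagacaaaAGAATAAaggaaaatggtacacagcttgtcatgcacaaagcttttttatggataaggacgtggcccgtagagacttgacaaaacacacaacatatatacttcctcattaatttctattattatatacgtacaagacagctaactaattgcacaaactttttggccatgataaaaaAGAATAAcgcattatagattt
CRF6 downstream region, chr3:22809485-22809724: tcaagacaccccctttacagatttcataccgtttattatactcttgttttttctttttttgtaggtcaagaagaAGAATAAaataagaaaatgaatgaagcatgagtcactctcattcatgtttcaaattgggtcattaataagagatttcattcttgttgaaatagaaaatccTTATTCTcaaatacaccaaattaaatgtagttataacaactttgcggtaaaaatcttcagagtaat
CKX7 downstream region, chr5:7230649-7230888: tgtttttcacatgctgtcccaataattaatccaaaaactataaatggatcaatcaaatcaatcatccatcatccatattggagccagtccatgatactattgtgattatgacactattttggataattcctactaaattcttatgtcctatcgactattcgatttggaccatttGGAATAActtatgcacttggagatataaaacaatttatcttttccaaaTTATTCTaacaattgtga
IPT3 upstream region, chr3:23320313-23320552: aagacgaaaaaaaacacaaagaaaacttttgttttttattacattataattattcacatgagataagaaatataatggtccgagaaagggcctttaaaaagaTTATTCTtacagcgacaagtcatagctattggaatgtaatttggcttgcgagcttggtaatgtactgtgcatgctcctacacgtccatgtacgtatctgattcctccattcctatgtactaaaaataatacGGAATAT
The near ARR8 region had the highest ratio of all 148 and no heptamer, whereas the other 5 windows hold 2 or 3 each. These windows were picked. The central bases of the highest IPT3 region, at a mean ratio of 4.75, and of the highest ARR7 region, at 5.24, also hold no heptamer.

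KAN1 was enriched beside 17 of the 42 cytokinin genes (40.5%), against 5829 of all 22970 genes named in the table (25.4%). Of their regions, 30 of 148 were bound (20.3%), against 4166 of all 22103 regions (18.8%). The share of genes thus exceeded the background by more than the share of regions did. The cytokinin genes had a median of 3 regions each, against 2 for all genes, and a median of 3134 bp of flanking intergenic space, against 1758 bp. The part of these differences in the count of bound genes was not tested. Among bound genes alone, the cytokinin genes had a median of 6 regions, against 3, and 9 of 17 (52.9%) had several bound regions, against 34.0% of all bound genes.

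The highest ratio of a gene had a median of 2.73 over the 42 cytokinin genes, against 1.79 over all genes. Among the bound genes the medians were closer, 4.75 for the cytokinin genes and 4.25 for all. Requiring a ratio of at least 3 in both replicates left 10 cytokinin genes (23.8%), against 2643 of all genes (11.5%). These were ARR4, ARR7, ARR8, ARR9, ARR11, IPT3, CKX3, CKX5, CKX7 and CRF6. Leaving out ChIP replicate 1 gave the same 10 genes. Replicate 1 had the higher ratio in all 30 bound regions, so this setting repeats the one before and is no separate check. Leaving out the smaller ChIP replicate 2 gave 28 cytokinin genes (66.7%), against 38.7% of all genes, at the same unscaled threshold. No test of the difference in shares was made, because the gene list was drawn up with results of this table known.

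**Figure D1:**
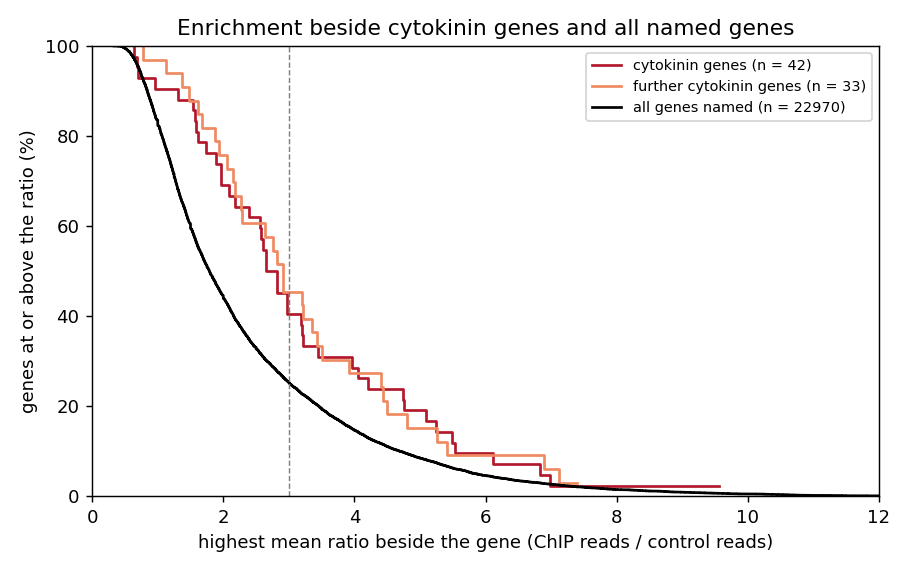
Percent of genes (vertical axis) whose highest mean ratio of ChIP to control reads reached the value on the horizontal axis, for the 42 cytokinin genes, 33 further cytokinin genes and all 22970 genes named in the table. At the dashed line, a ratio of 3, the cytokinin genes stand at 40.5% and all genes at 25.4%, and ARR8 is the only one of the 42 genes above a ratio of 7.

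By role, the bound genes were 2 of 3 receptor genes, 0 of 6 AHP genes, 5 of 10 type-A ARR genes, 1 of 6 type-B ARR genes in the table, 2 of 4 IPT genes, 3 of 7 CKX genes and 4 of 6 CRF genes, beside 25.4% of all genes. These counts moved with the replicate used, at a threshold not scaled for the smaller size of replicate 2. With the ChIP replicates scaled to the same total, the same 17 genes were bound by their mean ratio. This scaling keeps the summed total of both replicates, so the mean changes little. It does not show whether the replicates agree. Without ChIP replicate 1, where 11.5% of all genes were bound, the counts were 0 receptor genes, 0 AHP genes, 4 type-A genes, 1 type-B gene, 1 IPT gene, 3 CKX genes and 1 CRF gene. Without ChIP replicate 2, where 38.7% were bound, the AHP count was 3 (AHP3, AHP4 and AHP5) and the type-B count 4 (ARR1, ARR10, ARR11 and ARR18), and without control 2 AHP4 was bound. The median of the highest ratio per gene was 3.22 for the receptors, 2.05 for the AHP genes, 3.09 for the type-A genes, 2.52 for the type-B genes, 3.07 for the IPT genes, 2.61 for the CKX genes and 3.58 for the CRF genes. The groups are small and their ranges overlap: the AHP genes ran between 0.684 and 2.97 and the type-A genes between 0.955 and 9.56.

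**Figure D2:**
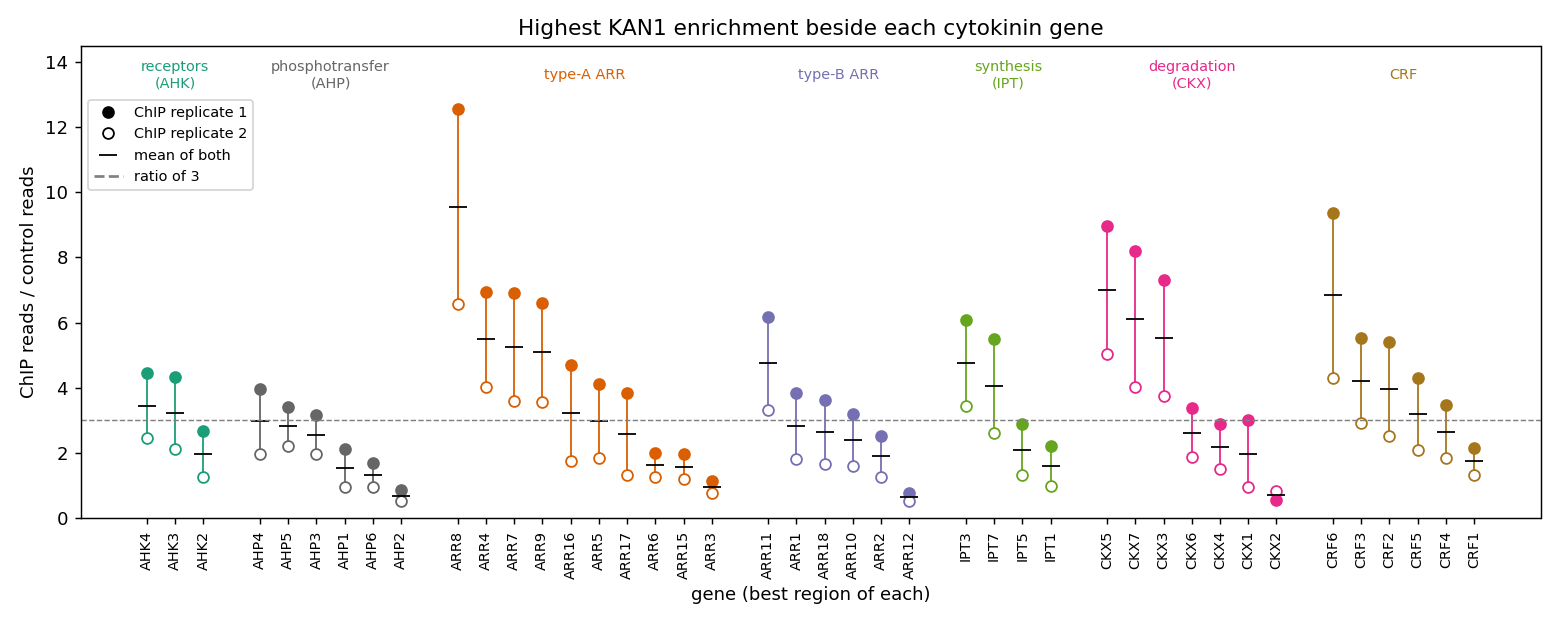
Ratio of ChIP to control reads (vertical axis) in the highest region of each of the 42 cytokinin genes, by role, with ChIP replicate 1 as a filled circle, replicate 2 as an open circle and their mean as a dash. ARR8 stands highest at a mean of 9.56, and replicate 1 lies above replicate 2 for every gene but CKX2.

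Among the receptors, AHK4 (AT2G01830, also CRE1, the receptor that also dephosphorylates AHP proteins when no cytokinin is bound) had its bound region 1449 bp downstream of the gene. It held 40 and 22 ChIP reads, against 9 and 0 control reads, a mean ratio of 3.44 ± 1.41 (SD, n = 2). The few reads left wide limits, with a 95% Clopper-Pearson interval of 2.12 to 10.4 for replicate 1 and 1.08 to 6.03 for replicate 2. All such intervals cover counting error only, and every SD also holds the difference in size of the ChIP libraries.

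AHK3 (AT1G27320), the receptor known for delaying leaf senescence, had a bound region 630 bp upstream by the deposited gene model, with 108 and 53 ChIP reads, against 24 and 1 control reads, a mean of 3.22 ± 1.56. The reference places its centre in an exon outside the coding sequence. AHK2, the remaining receptor gene, reached 1.97 ± 0.999 at 491 bp upstream. AHK3 and AHK4 thus lie close to the threshold, which neither passed in the smaller replicate 2, and AHK2 lies well under it. With the ChIP replicates scaled to the same total, the means of AHK3 and AHK4 were 3.21 and 3.50. With 10 reads added to ChIP and control, they fell under the threshold, to 2.59 and 2.16.

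The 6 AHP genes encode the proteins that carry phosphate into the nucleus, except that AHP6 lacks the receiving histidine and inhibits the relay. The highest was AHP4 (AT3G16360), with 242 and 120 ChIP reads, against 59 and 2 control reads, and a mean of 2.97 ± 1.41, just under the threshold. AHP5 reached 2.81 and AHP3 2.56, and AHP1, AHP6 and AHP2 stood at 1.54, 1.31 and 0.684. AHP2 thus had fewer ChIP than control reads in its only called region, inside the gene, and 96.0% of all genes had a ratio as high or higher.

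ARR8 (AT2G41310), a type-A regulator, had the strongest enrichment of any cytokinin gene. Its near region, 558 bp upstream at chr2:17221192-17221557, held 402 and 210 ChIP reads, against 30 and 2 control reads. The ratios were 12.6 (interval 8.76 to 18.6) for replicate 1 and 6.56 (4.51 to 9.84) for replicate 2, a mean of 9.56 ± 4.24. This region ranked 74 among all 22103, and only 0.649% of all genes had a highest ratio as large. Both lower limits lie above 3.

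The far region of ARR8, 2853 bp upstream at chr2:17218868-17219291, held more reads, 513 and 283 in the ChIP libraries, against 46 and 2 in the controls, and a mean of 8.29 ± 3.39. It lies almost as far, 2787 bp, upstream of the neighbouring gene SSL1 (AT2G41300), so either gene could be credited with it. A region 701 bp downstream of ARR8 reached 4.74 ± 2.81, with 6.72 in replicate 1 and 2.75 in replicate 2. ARR8 was thus the only type-A gene with 3 bound regions.

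ARR4 (AT1G10470), a type-A regulator that also binds phytochrome B, had a bound region 180 bp upstream at chr1:3443962-3444314, with 306 and 177 ChIP reads, against 44 and 0 control reads. The mean was 5.49 ± 2.07, and replicate 2 alone gave 4.02 (2.88 to 5.73). The reference, whose gene model is longer than the deposited one, has the centre in a non-coding stretch of exon. Of its 3 heptamers, all within 50 bp of the centre, 1 is shown here beside the heptamer of AHK3, since both sites are exonic and near the centre, with the heptamer in capitals on the plus strand of TAIR10.
ARR4 site, chr1:3444132-3444160: tagagaaaataATATTCCtaaaatcgaat
AHK3 site, chr1:9487142-9487170: tgtcttccaccATATTCTtctcatctttt
The middle of the ARR4 heptamer shown lies 8 bp, and that of the AHK3 heptamer 6 bp, to the right of the region centre.

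ARR7 (AT1G19050), a type-A gene active in the shoot meristem and embryonic root, had its bound region at nearly the same distance as ARR4, 179 bp upstream. It held 200 and 104 ChIP reads, against 29 and 0 control reads, a mean of 5.24 ± 2.34, and no heptamer. A further region 880 bp upstream of ARR7 reached 2.91.

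ARR9 (AT3G57040), the closest relative of ARR8, had 377 and 203 ChIP reads, against 56 and 1 control reads, in a region 1331 bp upstream, a mean of 5.09 ± 2.16. Its other bound region, 5174 bp upstream and only 1146 bp from AT3G57030, had 40 and 29 ChIP reads, against 10 and 0 control reads, and a mean of 3.45 ± 0.778. ARR16 (AT2G40670) had the widest spread among the bound type-A genes relative to its mean, 3.21 ± 2.09. Its region 565 bp upstream held 384 and 142 ChIP reads, against 82 and 0 control reads, the largest control total of the 30, and 5 heptamers.

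The other 5 type-A genes did not reach the threshold. ARR5 (AT3G48100), widely used as a cytokinin reporter, missed it narrowly: a region 28 bp upstream held 165 and 73 ChIP reads, against 40 and 0 control reads, a mean of 2.98 ± 1.63. ARR17 reached 2.58, ARR6 1.62 and ARR15 1.58, and ARR3 stayed at 0.955. Pairs of close relatives thus differed in this table, with ARR7 at 5.24 and ARR15 at 1.58, and ARR16 at 3.21 and ARR17 at 2.58, without a test of either difference.

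Of the type-B genes, which encode the activators of the pathway, only ARR11 (AT1G67710) was bound. Its region, 1375 bp upstream at chr1:25380318-25380722, held 365 and 195 ChIP reads, against 58 and 1 control reads, a mean of 4.75 ± 2.04. Both replicates passed the threshold, at 6.19 and 3.31, and all 3 of its heptamers are in the window shown above. ARR1, ARR10 and ARR12, the genes that carry most of the response in seedlings, reached 2.82, 2.39 and 0.645, and ARR18 and ARR2 reached 2.65 and 1.89. ARR12 had the lowest value of all 42 genes, with 53 and 36 ChIP reads, against 68 and 1 control reads.

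IPT3 (AT3G63110), a nitrate-responsive IPT gene of the phloem, had 3 bound regions. The highest, 987 bp downstream, held 467 and 265 ChIP reads, against 77 and 0 control reads, a mean of 4.75 ± 1.86, but lies nearer to AT3G63095, at 830 bp. The upstream regions, 152 and 892 bp from the gene, had means of 4.41 ± 1.67 and 4.26 ± 0.951. All 3 regions passed the threshold in both replicates.

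IPT7 (AT3G23630) had its bound region 5079 bp downstream, with 222 and 106 estimated ChIP reads, against 36.9 and 3.52 control reads, a mean of 4.05 ± 2.04. The gene AT3G23633 is nearer to it, at 1150 bp. By the reference gene models, IPT7 was not bound. IPT5 and IPT1 reached 2.09 and 1.59.

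Among the genes of cytokinin breakdown, CKX5 (AT1G75450) had the highest ratio, in a region at chr1:28327551-28327945 with 421 and 236 ChIP reads, against 47 and 0 control reads. The mean was 6.99 ± 2.78. This region lies 9372 bp upstream of CKX5 and 138 bp upstream of AT1G75460. Nearer to CKX5, a region with its centre in an intron reached 4.63 ± 2.85 and another, 4078 bp upstream, 3.64 ± 2.12. Neither of these passed the unscaled threshold in the smaller replicate 2, where they stood at 2.62 and 2.14.

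CKX7 (AT5G21482), which encodes the cytosolic member of the family, had a bound region 558 bp downstream at chr5:7230543-7230995. It held 427 and 209 ChIP reads, against 47 and 5 control reads, a mean of 6.12 ± 2.96, and CKX7 is its nearest gene. A further region in an intron of CKX7 reached 3.84 ± 2.04.

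CKX3 (AT5G56970), which acts with CKX5 to limit the activity of reproductive meristems, had 394 and 203 ChIP reads, against 54 and 0 control reads, in a region 6124 bp upstream of the gene and 378 bp from AT5G56975, with a mean of 5.53 ± 2.50. A region 3234 bp downstream reached 3.61 ± 1.91. The other CKX genes stayed below the threshold, with CKX6 at 2.61, CKX4 at 2.18, CKX1 at 1.97 and CKX2 at 0.694. CKX2 was the only gene whose highest region had more reads in replicate 2, with 17 and 26 ChIP reads, against 31 and 0 control reads.

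**Figure D3:**
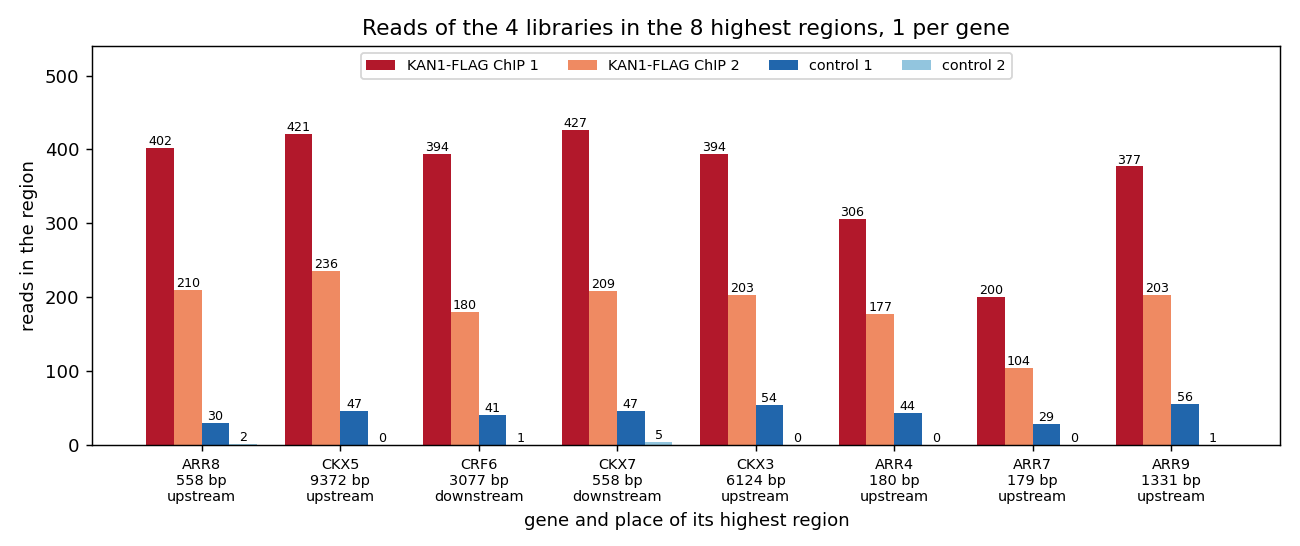
Reads (vertical axis, from 0) of ChIP replicates 1 and 2 and of controls 1 and 2 in the highest region of the 8 cytokinin genes with the largest mean ratios. ChIP replicate 1 holds between 200 and 427 reads, replicate 2 between 104 and 236, control 1 between 29 and 56 and control 2 between 0 and 5.

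The CRF genes encode AP2/ERF transcription factors that act beside the type-B regulators. CRF6 (AT3G61630), linked to leaf senescence and oxidative stress, had 394 and 180 ChIP reads, against 41 and 1 control reads, in a region 3077 bp downstream at chr3:22809450-22809759. The mean was 6.83 ± 3.60, and the gene AGP20 (AT3G61640) is nearer, at 436 bp. A region 1691 bp downstream of CRF6 reached 3.65 ± 0.666, with 70 and 54 ChIP reads, against 17 and 0 control reads.

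CRF3 (AT5G53290) reached 4.21 ± 1.84 in a region 7998 bp downstream and only 396 bp from PDV1, and 3.04 ± 1.58 at 2195 bp downstream, the lowest of the 30 bound regions. CRF2 (AT4G23750) had 3 bound regions, with means of 3.96 ± 2.05 at 1635 bp downstream, 3.93 ± 2.20 at 6346 bp upstream and 3.08 ± 2.83 at 2805 bp downstream. In the last of these, replicate 1 had 61 reads and replicate 2 had 13, against 12 and 0 control reads, so the mean rests on replicate 1. CRF5 (AT2G46310) was just inside the threshold at 3.19 ± 1.58, in a region 1637 bp downstream with 241 and 116 ChIP reads, against 55 and 1 control reads, and CRF4 and CRF1 were below it at 2.65 and 1.73. None of the regions of CRF2, CRF3 and CRF5 passed the unscaled threshold in the smaller replicate 2. With the ChIP replicates scaled to the same total, their highest means were 3.92, 4.26 and 3.17. With 10 reads added to ChIP and control, they were 3.38, 3.5 and 2.86, so CRF5 fell under the threshold. By the reference gene models, too, CRF5 was not bound.

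The positions of the 30 bound regions were 15 upstream of the cytokinin gene, 13 downstream (43.3%) and 2 inside (6.67%), against 59.5% upstream, 34.5% downstream and 5.64% inside for all pairs of a bound region and a gene. Within 1 kb upstream lay 7 regions (23.3%), against 21.7% of all pairs, and within 1 kb downstream 3 (10.0%), against 12.5%. Over 5 kb from the gene lay 6 of the 30 regions, against 8.54% of all pairs. In all 6 of these another gene was nearer, as was the case for 14 of the 30 bound regions. A region between genes was counted for both its left-hand and right-hand gene, so nearer neighbours arise by design. The counts of nearest genes given here were not calculated for all bound genes. For 9 of the 17 bound genes the highest region had the cytokinin gene as its nearest gene, and these were ARR4, ARR7, ARR8, ARR9, ARR11, ARR16, AHK3, CKX7 and CRF2. Every bound ARR gene is among them, while for AHK4, IPT3, IPT7, CKX3, CKX5, CRF3, CRF5 and CRF6 a neighbour lies nearer, and the table does not tell which gene such a region belongs to.

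**Figure D4:**
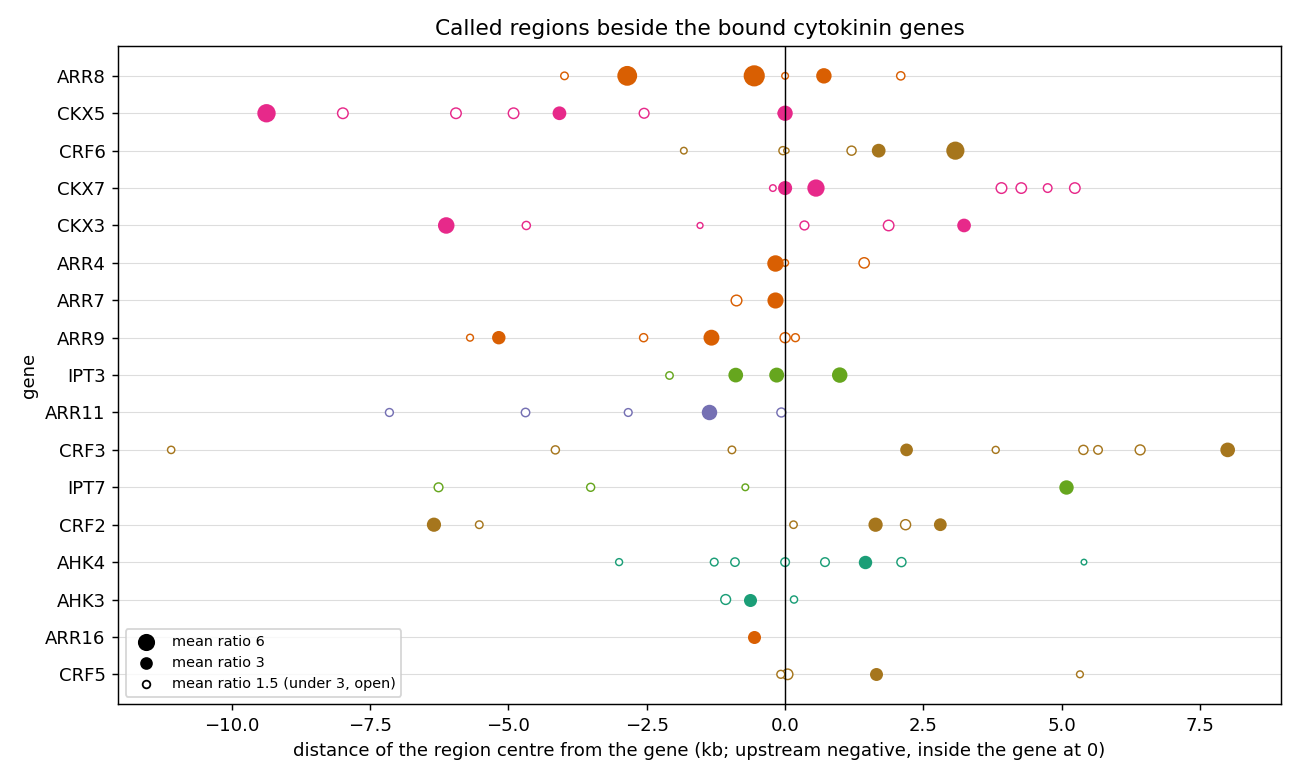
Distance in kb of every called region from each of the 17 bound cytokinin genes (horizontal axis, upstream negative and regions inside the gene at 0), with bound regions filled, others open, and area in proportion to the mean ratio. The highest ARR regions lie within 1375 bp upstream of their genes, while the highest regions of CKX5, CKX3, CRF3 and IPT7 lie over 5 kb away.

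A VGAATAW heptamer was present in 21 of the 30 bound regions (70.0%), against 69.8% of all bound regions, so the cytokinin genes did not stand apart in this. In windows of equal length, 300 bp at the region centre, the shares were 66.7% and 65.5%, and over all called windows 56.1% beside cytokinin genes and 50.3% in the whole table. The 41 heptamers in bound regions had a median distance of 73 bp from the centre, with 16 of them within 50 bp. AGAATAA was the most frequent form with 15 matches, and the next form, which starts with G and ends with A, had 8. The 9 bound regions without a heptamer included the highest regions of ARR8, ARR7, CRF2 and AHK4. A missing match says only that these letters were not in the region.

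The heptamer AGATACG, a sequence that type-B ARR proteins bind, was searched in the same 300-bp windows on both strands. It was present in 5 of the 30 bound windows beside cytokinin genes (16.7%), against 2.47% of all bound windows, and in 12 of all 148 windows (8.11%), against 2.17% of the whole table. Windows are not all separate occurrences, since overlapping windows beside CRF3, under the threshold, share 1 match. The 5 bound windows belong to ARR8, IPT3, CRF2 and CRF3, and none of the AGATACG matches overlaps a VGAATAW match. The matches of the far ARR8 region and of both upstream IPT3 regions are shown on the plus strand of TAIR10 with AGATACG or its reverse complement in capitals, as examples from the genes with the highest ratios among these 4.
ARR8 far region, chr2:17218925-17218953: tggacgccaccAGATACGatccaccgtat
IPT3 near upstream region, chr3:23319786-23319814: atgtgaagttaAGATACGattttttttct
IPT3 upstream region, chr3:23320495-23320523: acgtccatgtaCGTATCTgattcctccat
The far ARR8 region holds a further match on the other strand. A match is a description of the sequence, and whether a type-B ARR protein or KAN1 occupied it was not tested.

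Further genes of the pathway were taken from a separate list of 34 genes, made up of the remaining IPT genes, the LOG activating enzymes, hydroxylases, further response regulators and kinases, glucosyltransferases, transporters and the GATA factors GNC and CGA1. Of these, 33 were in the table and 15 were bound (45.5%), against the 25.4% of all genes given above. Without ChIP replicate 1 the count fell to 7 (21.2%), against 11.5% of all genes, and without ChIP replicate 2 it was 25 (75.8%), against 38.7%. The highest was AT1G02630, at 7.39, with 462 and 233 ChIP reads, against 47 and 0 control reads. CKI1 (AT2G47430), a histidine kinase that signals without cytokinin, had 181 and 104 ChIP reads, against 20 and 0 control reads, 2337 bp upstream, and a mean of 7.13 ± 2.72. LOG7 (AT5G06300), an enzyme that releases the active hormone, had 234 and 124 ChIP reads, against 26 and 0 control reads, only 60 bp upstream, and a mean of 6.88 ± 2.99. UGT76C2, a cytokinin glucosyltransferase, and PUP14, a cytokinin importer, had means of 5.41 and 5.26 in regions 123 and 213 bp upstream. Bound regions were thus found beside genes of hormone synthesis, activation, transport, inactivation and signalling.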

How the data were processed

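Groups and replicate numbers came from the sample labels. After mapping to TAIR10 and a reduction of duplicates, the authors called 1 set of regions over both ChIP replicates and deposited estimated counts of reads per region and library, unscaled. Aligner and caller are not given in the sources used here. The deposited table also holds the authors' false discovery rates (adjusted p-values), 1 per replicate, with a log2 rank product and a rank score, which are their own comparison and were not used. Positions, sizes and other distances in bp were used as deposited.

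Ratios, their mean and SD over 2 replicates, and exact 95% Clopper-Pearson intervals were computed in Python 3.11.15 with numpy 2.4.6, pandas 2.3.3 and scipy 1.17.1, and plots with matplotlib 3.10.9. No test between conditions was made, because the regions were called on the same reads and library depth is not in the table. Sequences came from TAIR10.1, whose gene models differ from the deposited ones. The motif search and ratio steps were tested on simulated data. The members, the further list, the sum of both controls and the threshold of 3 were chosen with earlier results of these data known, and the AGATACG search was added later. Every bound member was named with its highest region, the 8 highest with all reads, and every other member with its highest ratio. Alternatives covered the control, replicates, scaling, threshold, a pseudocount of 10 reads, distance, gene models and pairing.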

Additional observations from a re-analysis of the deposited data

How the results depend on the processing

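Leaving out 1 library at a time moved the number of bound cytokinin genes between 10 and 28, of bound regions beside them between 14 and 64, and the median ratio of the bound genes between 3.89 and 76.5, against 17, 30 and 4.75 as reported. Without ChIP replicate 1 there were 10 genes (23.8%, all genes 11.5%) and without ChIP replicate 2 there were 28 (66.7%, all genes 38.7%). The threshold was not scaled to the smaller replicate 2, so these settings differ in strictness. Without control replicate 2 there were 18 (42.9%, all genes 26.5%). Without control replicate 1, all 8174 regions with a read in control 2 passed the threshold, so the 28 genes counted there say only that control 2 had a read beside them. The same-numbered control as a replicate block gave 28 genes, 64 regions and a median of 27.1, where 8112 of the same 8174 regions passed, so that it too says little about enrichment; the samples share only a number, and no other link is given. A ratio of at least 3 in both replicates gave 10 genes and 14 regions. This repeats the setting without ChIP replicate 1, because replicate 1 gave the higher ratio in all bound regions beside cytokinin genes. A mean of at least 2 gave 29 genes (69.0%, all genes 44.6%) and 65 regions. A mean of at least 4 gave 12 genes (28.6%, all genes 14.8%) and 17 regions. Counting only regions within 1 kb of the gene left 8 of 42 genes (all genes 13.5%) and 12 regions. Scaling the replicates to the same total kept all 17 genes (all genes 25.4%), but this setting changes the mean little. With 10 added reads, 13 genes were kept (31.0%, all genes 18.6%), without AHK3, AHK4, ARR16 and CRF5. The reference gene models kept 15 of 40 (37.5%, all genes 25.1%), without CRF5 and IPT7. The percent of cytokinin genes was above that of all genes under each of these settings. Both settings that need a read in control 2 say little about enrichment, as given above. There it was 66.7%, against 50.8% of all genes without control replicate 1 and 50.3% with the same-numbered control. The depth limits single ratios: of the 30 bound regions, 25 had a lower 95% limit of at least 3 in replicate 1 and 4 in replicate 2. The gap between these counts also holds the unscaled, smaller size of replicate 2. Only 14 of the 30 regions had a ratio of at least 3 in both replicates.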
